A study of Mus musculus with 30 samples.

Results

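The ribosomal protein genes of the cytosolic ribosome were followed in platelets and PBMCs (peripheral blood mononuclear cells) of C57BL/6 mice with and without B16F10 melanoma. Members were the protein-coding genes whose whole symbol is Rpl or Rps, a number and at most a final a, l or x with a digit, together with Rplp0, Rplp1, Rplp2 and Rpsa. This rule found 83 of the 54532 genes in the count tables, 51 of the large subunit and 32 of the small subunit. All mice were female, C57BL/6 and 6 to 8 weeks old at the start, and the labels name no transgene or deletion. C group received 100 μl of HBSS (a buffered saline) under the skin of the right flank, S group received 2000 B16F10 cells, and O group received 100000 B16F10 cells. B16F10 is a melanoma cell line that arose in C57BL/6 mice. Blood was taken 14 days after inoculation and gave 5 platelet and 5 PBMC libraries per group, 30 in all. Each library was a pool of mice. By the sample labels the platelet pools held 10, 5, 5, 10 and 10 mice in C group, 10 mice each in S group and 3, 4, 5, 3 and 5 mice in O group. Each PBMC pool of C group held 5 mice, those of S group 5 mice except replicate 2 with 4, and those of O group the same numbers as the platelet pools. The spread between libraries is therefore a spread between pools, and platelets and PBMCs were separated from blood by centrifugation.

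Each cytosolic ribosome has a small subunit, which decodes the mRNA, and a large subunit, which joins amino acids, and nearly every ribosomal protein is present in one copy per ribosome. Most of the mRNAs begin with a C and a run of pyrimidines, the 5′ terminal oligopyrimidine (TOP) motif, through which mTORC1 and the RNA-binding protein Larp1 control their translation. Platelets have no nucleus and keep an RNA pool inherited from megakaryocytes, in which ribosomal protein mRNAs are known to be abundant, whereas PBMCs are mostly nucleated lymphocytes and monocytes. Mammalian genomes also carry many processed copies of ribosomal protein mRNAs, most of them pseudogenes.

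The platelet libraries held 12259036 to 25360080 counts on genes and the PBMC libraries 13390983 to 15973449. Hemoglobin genes took 4.02% to 39.0% of the counts of a platelet library, 3.23% to 9.39% in PBMCs of C group and S group, and 6.52% to 24.5% in PBMCs of O group. All of the 13 tested platelet and megakaryocyte markers (of 14, such as Pf4 and Gp9) were higher in platelets than in PBMCs, with a median log2 fold change of 4.28, and leukocyte markers were lower but present in platelet libraries. O group replicates 1 and 4, pools of 3 mice in both tissues, stood apart: in PBMCs their ratio of alpha to beta globin counts was 4.21 and 4.70, against 0.725 to 1.01 in all other PBMC libraries. Counts of member calls that use O group are therefore also given without these replicates. In bulk samples of this kind fewer cells of a type and less RNA per cell cannot be told apart.

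Ribosomal protein genes took 1.78% to 5.90% of the gene counts of a library, with platelet groups that overlapped and low shares in PBMCs of O group. In platelets their share of all gene counts was 1.78, 3.30, 5.61, 2.92 and 3.32% in the 5 C group libraries. It was 3.69, 3.16, 2.41, 4.27 and 2.65% in those of S group and 2.73, 2.87, 3.800, 3.66 and 4.92% in those of O group. The 3 platelet groups overlapped, and the lowest and the highest of the 15 platelet libraries were both in C group. In PBMCs the share was 5.66, 5.88, 5.17, 5.50 and 5.15% for C group. It was 5.90, 5.19, 4.75, 5.10 and 5.43% for S group and 2.73, 4.52, 4.29, 3.68 and 5.01% for O group. All 5 PBMC libraries of O group lay below the lowest of C group (5.15%). That separation ended once hemoglobin counts were left out, where O group reached 5.53% and C group began at 5.41%, and with the 10 most abundant genes left out (5.72% and 5.60%). As means the shares were 3.41 ± 0.981% (SD, n = 15) in platelets and 4.93 ± 0.852% in PBMCs (SD, n = 15). The 10 most abundant genes of a library took 26.6% to 48.0% of platelet counts and 6.00% to 30.6% of PBMC counts. With those 10 genes left out, the means were 5.21 ± 1.44% in platelets and 5.59 ± 0.630% in PBMCs.

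**Figure D1:**
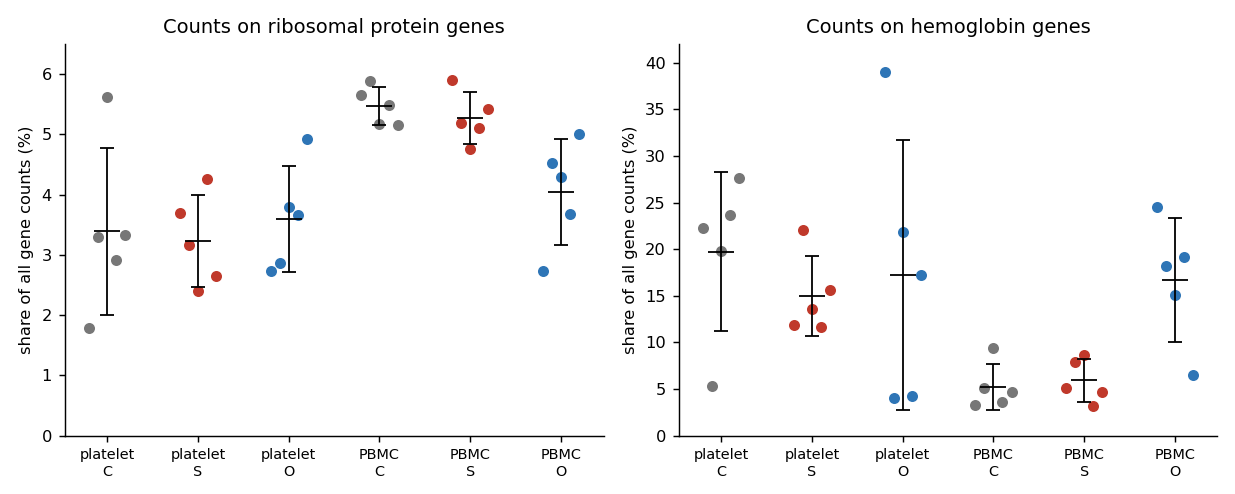
Share of all gene counts (%) on the 83 ribosomal protein genes (left) and on hemoglobin genes (right) in each of the 30 libraries, by tissue and group. Points are libraries, lines are means and bars are SDs over 5 libraries. Ribosomal protein genes took 2.73% to 5.01% in PBMCs of O group and 5.15% to 5.88% in PBMCs of C group, while hemoglobin genes took 6.52% to 24.5% in PBMCs of O group.

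Levels are given as normalised CPM, counts scaled to a common library size (CPM) with TMM factors set over all 30 libraries. In each tissue 73 of the 83 members had a median of at least 100 CPM and 5 had a median under 10 CPM. Per kilobase of transcript, the scale on which genes can be compared, the highest members in platelets were Rplp1 (median 2626 CPM per kb), one of the acidic stalk proteins that recruit elongation factors, Rpl41 (2480), Rps27 (1729.8) and Rpl13 (1683). In PBMCs Rplp1 was also first (1396 CPM per kb), followed by Rps27 (1212), Rps9 (1075) and Rpl13 (1042), while Rpl41 was ninth (823). The order of the 83 members was much the same in both tissues, with a rank correlation of 0.959 over the 83 genes, which share their length and copies in both tissues and are not independent replicates. The 4 members with the highest mean CPM over all libraries were Rplp0, Rpsa, Rpl41 and Rpl4. Rplp0, the base of the stalk, averaged 2118 ± 561 CPM in platelets and 1167 ± 96.8 CPM in PBMCs (SD, n = 15 each). At the other end lay the members that are known for expression in other tissues. Rpl10l, a testis gene, had no count in any of the 30 libraries. Rpl39l, another testis paralog, had 0 to 11 counts per platelet library and 0 to 5 per PBMC library, and Rpl3l, a muscle paralog, had 0 to 18 and 2 to 20. Counts were therefore tested for 80 members in platelets and 81 in PBMCs and between tissues.

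Sequence sharing limits how far counts can be assigned to single members. Of the 83 members, 74 shared at least one 100-base word with another annotated transcript and 36 shared 50% or more of their words (median 41.3%). In all, 440 gene copies, most of them annotated pseudogenes, shared a word with 72 members. The copies together held under 10% of the member's counts for 59 members in platelets and 64 in PBMCs. For Rps10, Rpl17, Rpl21 and Rpl24 the copies held more counts than the member itself, and the reads of these 4 members are uncertain. Each count of calls below was therefore also computed with the counts of the copies added to the member.

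The coding sequences of 2 short members that recur in the group comparisons are printed 5′ to 3′ from GENCODE M21 (GRCm38), with start and stop codons in capitals and the span of the transcript given first.
Rpl38 (chr11:114668524-114672331, plus strand, 213 coding bases): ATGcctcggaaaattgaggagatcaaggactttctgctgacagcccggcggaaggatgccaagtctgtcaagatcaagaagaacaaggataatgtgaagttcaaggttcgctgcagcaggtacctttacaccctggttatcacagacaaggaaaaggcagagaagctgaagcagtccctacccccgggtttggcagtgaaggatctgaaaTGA
Rpl41 (chr10:128548114-128549305, minus strand, 78 coding bases): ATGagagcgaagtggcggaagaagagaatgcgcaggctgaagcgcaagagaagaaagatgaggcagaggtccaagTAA
Rps29 encodes 56 residues of the head of the small subunit, Rpl38 encodes 70 residues of the large subunit, and Rpl41, with 25 residues, is the shortest ribosomal protein. All coding bases of Rps29, Rpl38 and Rpl41 lay in 100-base words that another annotated transcript also holds. In the whole set 11 members encode proteins under 100 residues and 72 encode longer ones.

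PBMCs of S group as compared to C group address whether an inoculum of few tumor cells leaves a mark on blood RNA. Among ribosomal protein genes, Rps29 decreased most and was the one member past the adjusted threshold in edgeR, several other short members decreased to a lesser degree, and Rpl22l1, Rpl23a and Rpl6 increased. Of the 81 members tested, 12 had an unadjusted P under 0.05, the criterion of the study, against 2.64% of all 15139 genes tested. Of these, 3 were higher in S group (background 1.23%) and 9 lower (background 1.41%), and with library totals 1 was higher and 9 were lower (0.826% and 1.7% of all genes). The median log2 fold change of the members was −0.02, beside 0.01 for all genes, and 49 members lay below 0 (45.9% of all genes).

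Rps29 was measured at 321, 389, 334, 343 and 286 CPM in the 5 C group libraries of PBMCs and at 234, 179, 176, 208 and 215 CPM in S group. Every S group library lay below every C group library. The S group mean was 202 ± 24.8 CPM, beside a C group mean of 334 ± 37.4 CPM (SD, n = 5 each), with a log2 fold change −0.72, SE 0.10, adjusted P = 0.0385 in edgeR's quasi-likelihood test, and 0.033% of all genes passed that adjusted threshold. With the replicate number as a block, by which same-numbered PBMC libraries of S group and C group deviated together, the adjusted P was 0.130 in edgeR, with O group in the same fit it was 0.290, and with library totals it was 0.0547. Without 1 library the adjusted P ranged from 0.0411 to 0.164, under 0.05 without C group replicate 5 and above it in the other 9 of 10 fits, while the unadjusted P stayed under 0.05 in all 10. Adding the counts of its copy, Gm14303, left the change at −0.71 (adjusted P = 0.0385, edgeR).

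The other short members lay in the same direction (values after ± are SEs of the log2 fold change unless stated). All 10 tested members under 100 residues had a log2 fold change below 0 (median −0.19) and 6 of them decreased, whereas of the 71 longer members 32 were above 0 and 39 below (median −0.01), with 3 higher and 3 lower. Rpl38, a large subunit protein known for its role in the translation of Hox mRNAs, was measured at 164, 184, 156, 167 and 149 CPM in C group and 159.7, 127, 123, 133 and 139 CPM in S group. The groups overlapped through S group replicate 1, and the other 4 libraries of S group lay below C group (log2 fold change −0.27, SE 0.08, adjusted P = 1.00, edgeR). Rps28, a small subunit protein, was measured at 139, 159, 137, 146 and 119.8 CPM in C group and 147, 110.5, 95.8, 104 and 112 CPM in S group (−0.30 ± 0.11). Here too S group replicate 1 was the library within the range of C group. Rpl37 (−0.18 ± 0.07), Rps27 (−0.21 ± 0.09) and Rps21 (−0.20 ± 0.09) also passed the unadjusted criterion. The remaining 4 short members, Rpl37a (−0.10 ± 0.08, SE), Rpl39 (−0.04 ± 0.07), Rpl41 (−0.14 ± 0.08) and Rps27l (−0.07 ± 0.13), did not. The adjusted P of these short members other than Rps29 was 1.00 in edgeR. As a share of all ribosomal protein counts, the 11 short members took 8.19, 8.51, 8.47, 8.30 and 7.94% in C group and 7.17, 6.88, 7.37, 7.43 and 7.44% in S group. The ranges of this share did not overlap in PBMCs of C group and S group, while O group spread from 7.62% to 13.2%. The share includes Rps29, which decreased most, and Rps27, and it was not computed without them.

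**Figure D2:**
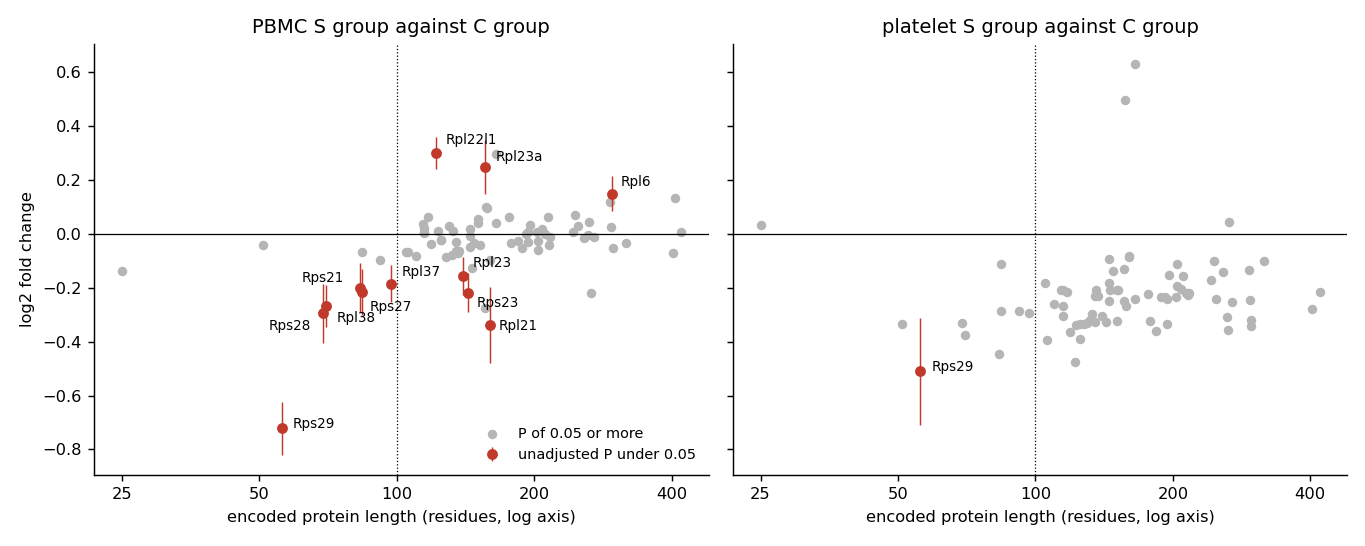
Log2 fold change of S group over C group against the length of the encoded protein (residues, log axis) for the members tested in PBMCs (left, 81) and platelets (right, 80). Red points have an unadjusted P under 0.05 and carry their SE, and the dotted line is at 100 residues. In PBMCs all 10 short members lie below 0 and Rps29 is lowest at −0.72, whereas in platelets 76 of 80 members of all lengths lie below 0.

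Across the 81 members the rank correlation of the log2 fold change with protein length was 0.392, with GC content 0.0866 and with the share of words shared with other transcripts 0.0872, as descriptions over genes of the same libraries. With the counts of copies added, 9 members passed the criterion, 2 higher and 7 lower (1.22% and 1.41% of all genes), and 5 of the 10 short members decreased. Rps28 (−0.43, adjusted P = 0.446) and Rpl38 (−0.33, adjusted P = 0.599) then lay further below 0. Rps27 no longer passed (0.03, adjusted P = 1.00), and its copy Rps27rt held 1377 to 7093 counts in S group and 1415 to 2238 in C group, and neither did Rpl21 (−0.04, adjusted P = 1.00) or Rpl6 (0.10, adjusted P = 1.00). The main count of 12 became 5 without C group replicate 2 or S group replicate 2 (2.45% and 2.38% of all genes), 7 without S group replicate 3 (2.9%) and 17 without S group replicate 1 (3.66%).

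Of the longer members, Rpl22l1, a paralog of Rpl22 that is known for roles in lymphocyte development, increased from 23.98, 24.6, 24.1, 26.9 and 25.05 CPM in C group to 33.8, 30.8, 29.2, 28.0 and 31.2 CPM in S group. All S group libraries of PBMCs lay above all C group libraries for Rpl22l1 (log2 fold change 0.30, SE 0.06, adjusted P = 0.293, edgeR), and the unadjusted P stayed under 0.05 in every fit without 1 library. In DESeq2 Rpl22l1 also passed the adjusted threshold (0.29, adjusted P = 0.0288). Rps29 and Rpl22l1 were the 2 of 81 members whose S group and C group did not overlap (0.76% of all genes). By the same criterion Rpl23a, at the exit of the peptide tunnel, increased (0.25 ± 0.10), as did Rpl6 (0.15 ± 0.07). Rps23, a protein of the decoding centre, decreased from 569.9, 647, 548, 607 and 541 CPM in C group to 568, 498, 466, 478 and 489 CPM in S group (−0.22 ± 0.07), and Rpl23 (−0.16 ± 0.07) and Rpl21 (−0.34 ± 0.14) decreased. Apart from Rpl22l1, the longer members named here had an adjusted P of 1.00 in edgeR. Rpl23a overlaps other annotated exons over 62.3% of its length and its copies held 32.4% of its counts in PBMCs, so its reads are partly uncertain. No marker list of another cell type had a member past the criterion in this comparison (T cell 0 of 12, B cell 0 of 10, NK cell 0 of 9, monocyte and macrophage 0 of 10, neutrophil 0 of 10, erythroid 0 of 9, platelet 0 of 13, melanocyte 0 of 2 tested). Some lists still lay on one side of 0. Platelet markers were below 0 in 13 of 13 (median −0.22), and monocyte and macrophage markers in 9 of 10 (−0.07). Erythroid (9 of 9, median 0.21), B cell (10 of 10, 0.15) and NK cell markers (9 of 9, 0.14) were above 0. Of T cell markers 7 were above and 5 below, and of neutrophil markers 5 and 5. The part of these cells in the short-member result was not tested.

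**Figure D3:**
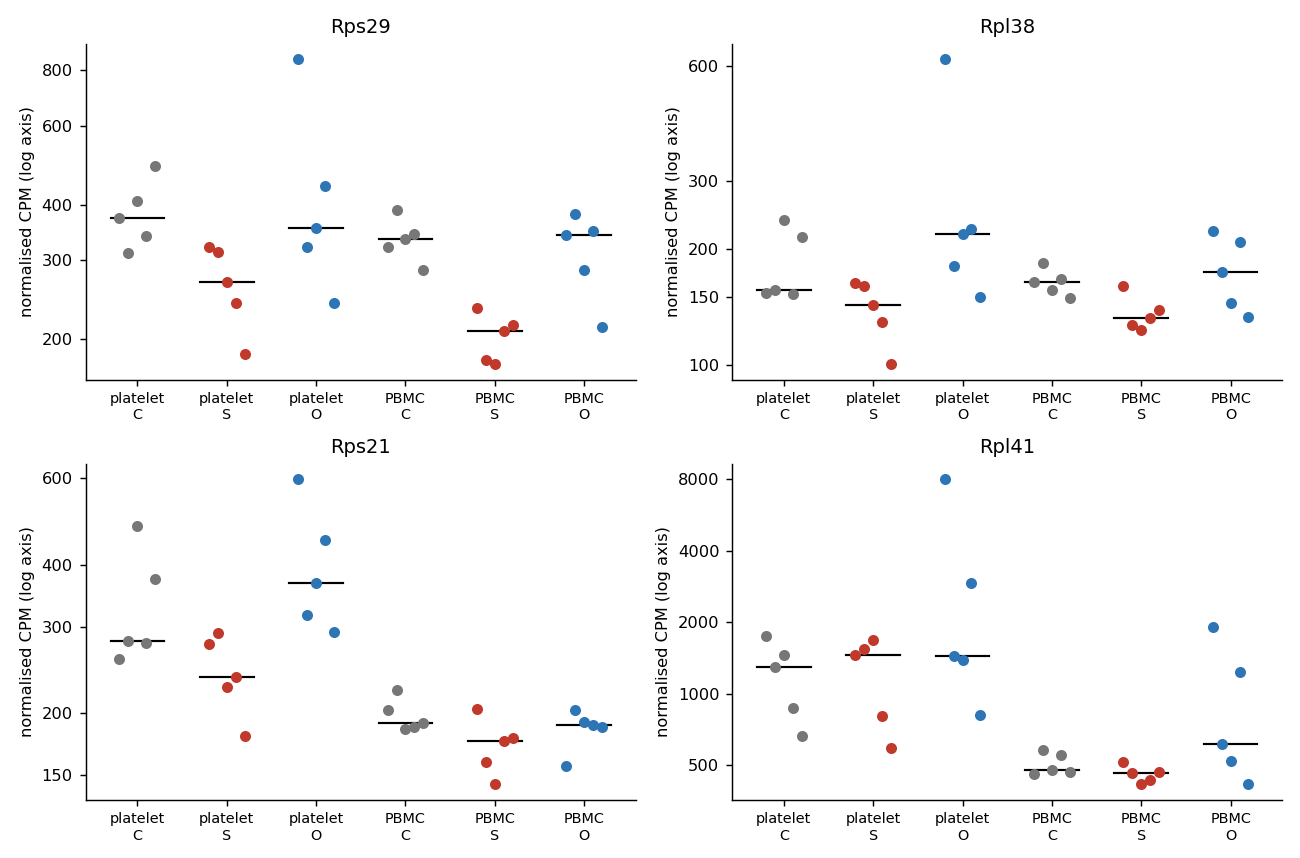
Normalised CPM (log axes) of the short members Rps29, Rpl38, Rps21 and Rpl41 in each of the 30 libraries, with a line at the median of each group of 5. Rps29 in PBMCs of S group (176 to 234 CPM) lies below C group (286 to 389 CPM), and platelet O group replicate 1 is the highest library of all 4 genes.

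In platelets of S group as compared to C group most members had a log2 fold change below 0 with TMM factors, and 1 difference met the unadjusted criterion. Of the 80 members tested, 76 had a log2 fold change below 0, against 52.0% of all 13268 genes, with a median of −0.24 beside −0.01 for all genes. Rps29 alone had an unadjusted P under 0.05 and was lower (6.42% of all genes, 2.13% lower), and no member passed the adjusted threshold in edgeR or DESeq2. In DESeq2 3 members passed the unadjusted criterion, all lower (7.52% of all genes, 3.01% lower). No member had groups without overlap (1.11% of all genes). The count was 9 without C group replicate 1 (11.4% of all genes), 3 without C group replicate 2 (4.83%), 4 without S group replicate 2 (7.08%) and 0 without C group replicate 5, S group replicate 4 or S group replicate 5. The 76 of 80 and the median depended on single pools, on weights and on the scaling. With voom sample weights 23 members lay above 0 (median −0.05), and relative to the summed member counts 39 did (median −0.0013) and the 1 call was higher (5.68% of all genes). The median was −0.06 without C group replicate 3, the pool with the highest ribosomal protein share, −0.34 without C group replicate 1, and −0.07 with library totals in place of TMM factors, which moved the median of all genes to 0.20.

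Rps29 in platelets was measured at 373, 312, 407, 341 and 489 CPM for C group, 321, 314, 268, 240.1 and 185 CPM for S group and 846, 321, 354, 441 and 241 CPM in O group. S group and C group overlapped in platelets, through S group replicates 1 and 2 and C group replicate 2 (log2 fold change −0.51, SE 0.20, adjusted P = 0.752, edgeR). The call was lost without C group replicate 5, S group replicate 4 or S group replicate 5, with the replicate block (−0.51), with all 3 groups in one fit (−0.49), and with library totals or summed member counts (−0.33 each), and with the copy added the change was −0.31 (adjusted P = 0.785, edgeR). That copy, Gm14303, held 27.1% of the counts of Rps29 in platelets and 5.43% in PBMCs. The members next in order, none past the criterion, were Rpl22l1 (−0.48 ± 0.23), Rps21 (−0.45 ± 0.22) and Rpl38 (−0.37 ± 0.20). The 4 members above 0 were Rps10 (0.63 ± 0.42, SE), Rpl24 (0.50 ± 0.30), Rpl7a (0.05 ± 0.32) and Rpl41 (0.03 ± 0.33). The counts of Rps10 and Rpl24 were low, and both lay below 0 once copies were added, where 79 of 80 members were below 0. Across the 80 members the rank correlation of the log2 fold change with protein length was 0.330 and with GC content 0.488. Lymphocyte markers moved the other way: 5 of 12 T cell, 4 of 10 B cell and 3 of 9 NK cell markers, and 1 of 10 monocyte and macrophage markers, were higher in S group than in C group, with summed T cell levels of 595 to 735 CPM against 537 to 627 CPM and none of these markers at 0 in all libraries of a group. Platelet and erythroid markers lay on the same side as the members, with none past the criterion. Of platelet markers 12 of 13 were below 0 (median −0.23, beside −0.24 for the members), and of erythroid markers 10 of 10 (median −0.62). Their part in the result was not tested.

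The groups S and O differ in the number of cells injected, and S group as compared to O group asks what distinguishes the small from the large inoculum. In platelets the libraries of S group pool 10 mice each and those of O group 3 to 5, so inoculum and pool size cannot be told apart. In platelets 5 of 80 members had an unadjusted P under 0.05 and all 5 were lower in S group, against 13.9% of all 13306 genes (6.67% lower). With DESeq2 14 members were lower and none higher (7.7% and 8.22% of all genes). The median of the members was −0.22, beside −0.01 for all genes, and 73 of 80 were below 0 (51.6% of all genes). Rps21, a small subunit protein of 83 residues, was measured at 277, 291, 227, 237 and 180.2 CPM in S group and 597, 317, 368, 449.7 and 292 CPM in O group. The 2 groups did not overlap for Rps21 (log2 fold change −0.69, SE 0.24, adjusted P = 0.299, edgeR). Rpl38 was measured at 163, 160.5, 143, 129 and 100.2 CPM in S group and 623, 180.1, 218, 226 and 149.6 CPM in O group (log2 fold change −0.97, SE 0.38, adjusted P = 0.319, edgeR). Its value in O group replicate 1 was the highest of the 30 libraries, and O group replicate 5 lay within the range of S group. Rpl35 (−0.74 ± 0.32) and Rpl31 (−0.61 ± 0.26), which lie around the peptide exit tunnel, and Rpl22l1 (−0.41 ± 0.19) were the others, and the adjusted P of the 5 ran from 0.299 to 0.357 in edgeR.

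In 11 of 80 members all S group platelets lay below all O group platelets, against 2.55% of all genes. These were Rpl4, Rpl6, Rpl23, Rpl36a, Rps4x, Rps9, Rps15a, Rps20, Rps21, Rps23 and Rps25, and of them Rps21 alone passed the test. Rps25, for example, was measured at 490.0, 498, 415, 466 and 325 CPM in S group and 522, 565, 548, 575 and 521 CPM in O group. The lowest O group library was close to the highest of S group, so that the separation was narrow. Without O group replicates 1 and 4 the groups did not overlap for 22 of 80 members (7.53% of all genes). Without O group replicates 1 and 4, no member was lower past the criterion (Rps21 −0.38, Rpl38 −0.34, Rpl35 −0.26, Rpl31 −0.22 for those named by rank) and 1 member was higher in S group by it (4.82% and 6.71% of all genes). With voom sample weights 2 members were higher in S group and 2 lower (10.0% and 7.02% of all genes), and with the replicate block 1 was higher and 4 were lower (8.06% and 3.55%). Relative to the summed member counts, 2 members were higher in S group and none lower (14.0% and 1.16% of all genes), and relative to library totals 1 was higher and 2 were lower (5.75% and 2.1%). Without 1 library the count was 2 without S group replicate 3 or 5, 3 without S group replicate 4, O group replicate 1 or O group replicate 4, 10 without O group replicate 2 (15.7% of all genes) and 13 without O group replicate 5 (16.0%), and in the other fits without 1 library 9.6% to 14.9% of all genes passed. Of the marker lists, 10 of 12 T cell and 7 of 10 B cell markers were higher and 4 of 10 erythroid and 6 of 9 neutrophil markers lower in S group, and 4 of 9 NK cell and 3 of 10 monocyte and macrophage markers were higher. The summed T cell levels were 595 to 735 CPM against 326 to 649 CPM, summed B cell levels were 1947 to 3524 CPM against 1031 to 2208 CPM, and summed neutrophil levels were 290 to 497 CPM against 524 to 5078 CPM. No marker of these lists was at 0 in all libraries of either group, and their part in the result was not tested.

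In platelets of O group as compared to C group 1 of 80 members, Rps27a, passed the unadjusted criterion and was lower (4.79% of 13270 genes, 2.17% lower), and the median of the members was −0.06 beside −0.01 for all genes. Rps27a encodes ubiquitin fused to a small subunit protein. It was measured at 105, 127, 223, 184 and 147 CPM in C group and 118, 109, 106, 109 and 111 CPM in O group (log2 fold change −0.56, SE 0.23, adjusted P = 0.910, edgeR). The O group libraries were close to one another and lay within the lower part of the range of C group. With library totals 1 other member was higher and none lower (2.68% and 0.399% of all genes). The Rps27a call was lost with library totals, without C group replicates 3 or 4, without O group replicates 2, 3 or 4, and without O group replicates 1 and 4 together. The largest difference was that of Rpl41, which was measured at 1751, 1295, 1456, 869.8 and 665 CPM in C group and 7963, 1443, 1389.5, 2912 and 815 CPM in O group (log2 fold change 1.27, SE 0.60, adjusted P = 0.910, edgeR). Only O group replicates 1 and 4 lay above C group. Without 1 library the count of 1 became 0 without C group replicate 4 or O group replicate 4 and 2 without O group replicate 5, and the median of the members became 0.14 without C group replicate 3. Of the marker lists, 3 of 11 erythroid and 4 of 9 neutrophil markers were higher and 6 of 12 T cell and 3 of 10 B cell markers lower in O group, with summed neutrophil levels of 524 to 5078 CPM against 229.6 to 1065 CPM and summed T cell levels of 326 to 649 CPM against 537 to 627 CPM. Mpo was at 0 in all platelet libraries of C group, and the part of these cells in the result was not tested.

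In PBMCs of O group as compared to C group 8 of 81 members had an unadjusted P under 0.05, against 11.9% of all 14726 genes. Of these, 7 were lower (background 4.39%) and 1 was higher (background 7.56%), and the median was −0.09 beside 0.00 for all genes. Rps27a was measured at 198, 308, 242, 329 and 308 CPM in C group and 114, 202, 133, 126 and 229 CPM in O group. C group replicate 1 lay within the range of O group and the other 4 C group libraries lay above it (log2 fold change −0.73, SE 0.20, adjusted P = 0.337, edgeR), and the unadjusted P of Rps27a stayed under 0.05 under each alternative run and without each library. Rps27 (−0.27 ± 0.10), Rpl10a (−0.20 ± 0.08), Rpl36a (−0.17 ± 0.07), Rpl14 (−0.19 ± 0.09), Rpl5 (−0.19 ± 0.08) and Rps7 (−0.21 ± 0.09) were also lower, with adjusted P from 0.365 to 0.413 in edgeR. The calls on Rps27 and Rpl10a were lost relative to the summed member counts and without O group replicates 1 and 4, among other settings. All O group libraries lay below all C group libraries for Rpl10a, Rpl36a, Rps24 and Rpl5 (1.66% of all genes), and the same 4 members had no overlap without O group replicates 1 and 4 (2.93% of all genes). In DESeq2 Rps27a passed the adjusted threshold (adjusted P = 0.0222). Rpl5, which with Rpl11 and the 5S rRNA forms a particle that binds Mdm2, was measured at 568, 617, 549, 583 and 565 CPM in C group and 411, 547, 509.6, 434 and 531 CPM in O group. Rpl11 did not pass the test (−0.04 ± 0.08).

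Rpl41 was the 1 member that was higher in PBMCs of O group. It was measured at 462, 579, 479, 551 and 467 CPM in C group and 1907, 616, 519.8, 1234 and 419 CPM in O group (log2 fold change 0.98, SE 0.40, adjusted P = 0.381, edgeR). O group replicates 1 and 4 held the highest values, and without them the difference was 0.04 and 3 of 81 members passed the test (9.08% of all genes). The call on Rpl41 was also lost with the replicate block (0.69), voom sample weights (0.33) or library totals (0.40), and without any 1 of C group replicates 1, 3, 4 and 5 and O group replicates 1 and 4. The same replicates held the highest values of Rpl41 in platelets, where its share of all ribosomal protein counts was 11.3% and 4.81% against 1.66% to 3.90% in S group and 1.30% to 4.34% in C group. Erythroid markers were higher in O group (9 of 9 tested, median 2.85, summed 40169 to 294305 CPM against 19150 to 59331 CPM), T cell markers were lower (12 of 12, median −0.35, summed 802 to 1126 CPM against 1091 to 1453 CPM), 3 of 9 NK cell markers were lower and 1 of 10 neutrophil markers was higher, none of them at 0 in all libraries of a group. Of 13 platelet markers in PBMCs, 12 lay above 0 in O group against C group and 1 below (median 0.60), with none past the criterion. The part of these cells in the result was not tested. The scaling carries weight here: relative to library totals, which moved the median of all genes to −0.37, 58 members were lower in O group (27.6% of all genes), and relative to the summed member counts 3 were higher and 1 was lower (10.2% and 1.36% of all genes). With RLE factors 2 were higher and 5 lower (7.89% and 4.14%). Without 1 library the count of 8 became 2 without C group replicate 2 or 4, 3 without C group replicate 3, O group replicate 1 or O group replicate 4, 5 without C group replicate 1 or O group replicate 3, and 18 without O group replicate 2 (11.2% of all genes), and in the other fits without 1 library 8.0% to 17.6% of all genes passed.

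S group as compared to O group in PBMCs shares the S group and O group libraries with the comparisons above, so that its calls are not separate evidence. Here 6 of 81 members had an unadjusted P under 0.05 (12.2% of 14686 genes), 2 higher in S group (background 4.43%) and 4 lower (background 7.8%). Rps29 was measured at 341, 381, 285, 349 and 212 CPM in O group, beside the S group values given above. O group replicate 5 fell within the range of S group and the other 4 lay above it (log2 fold change −0.70, SE 0.16, adjusted P = 0.296, edgeR). Rpl23a was measured at 225, 217, 176, 220.0 and 185 CPM in S group and 165, 170.5, 157, 127 and 162 CPM in O group, without overlap (0.32 ± 0.10). With larger adjusted P than Rps29, Rpl41 (−1.13 ± 0.39), Rpl38 (−0.45 ± 0.16) and Rpl21 (−0.50 ± 0.19) were lower in S group and Rps7 (0.21 ± 0.09) was higher. With library totals Rps29 (−0.29) and Rpl38 (−0.02) no longer passed. Rpl41 and Rpl38 did not pass without O group replicates 1 and 4 (−0.19 and −0.17), and 3 members passed then (8.42% of all genes). Relative to library totals, which moved the median of all genes to 0.36, 32 members were higher in S group (24.0% of all genes) and 1 was lower (2.36%). With RLE factors 1 was higher and 4 were lower (4.28% and 8.05% of all genes), and relative to the summed member counts 1 was higher and 5 were lower (2.96% and 7.94%). Rpl23a and Rpl6 were the 2 members with S group above O group in every library (1.73% of all genes), also without O group replicates 1 and 4 (3.21%). In DESeq2 Rps29 passed the adjusted threshold (adjusted P = 0.0107). All of 12 T cell and 8 of 9 NK cell markers were higher and 9 of 9 erythroid and 3 of 10 neutrophil markers lower in S group. Of 13 platelet markers 12 lay below 0 and 1 above (median −0.83). Past the criterion P2ry12, the 1 above 0, was higher and Itgb3 lower, and Gp1bb was at 0 in all PBMC libraries of S group. Their part in the result was not tested.

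The comparison of tissues used the 30 libraries together and adjusted for group. By the study's methods PBMCs came from the bottom layer of blood used for platelet isolation, whereas this fit took the libraries as independent. Same-numbered platelet and PBMC libraries correlated from 0.066 to 0.562 in O group (4 of 5 over 0.1). The range was −0.094 to 0.187 in C group (2 of 5) and −0.065 to 0.189 in S group (1 of 5). With TMM factors, 76 of 81 members differed at an adjusted P under 0.05 in edgeR (81.0% of 16498 genes), 74 of them higher in platelets (35.8% of all genes) and 2 lower (45.2%). The median log2 fold change of the members was 0.67, beside −0.17 for all genes. The counts were again 76, 74 and 2 without O group replicates 1 and 4. The direction rests on the scaling. Relative to library totals, which moved the median of all genes to −1.38, no member was higher and 71 were lower in platelets (background 14.2% and 76.9%), with a member median of −0.55. Relative to the summed counts of the members themselves, 13 were higher and 17 lower (background 19.8% and 65.1%). Levels of the family between the tissues thus depend on what they are set against. The balance among the members can be read from the last scale, apart from members whose copies hold many of their counts.

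**Figure D4:**
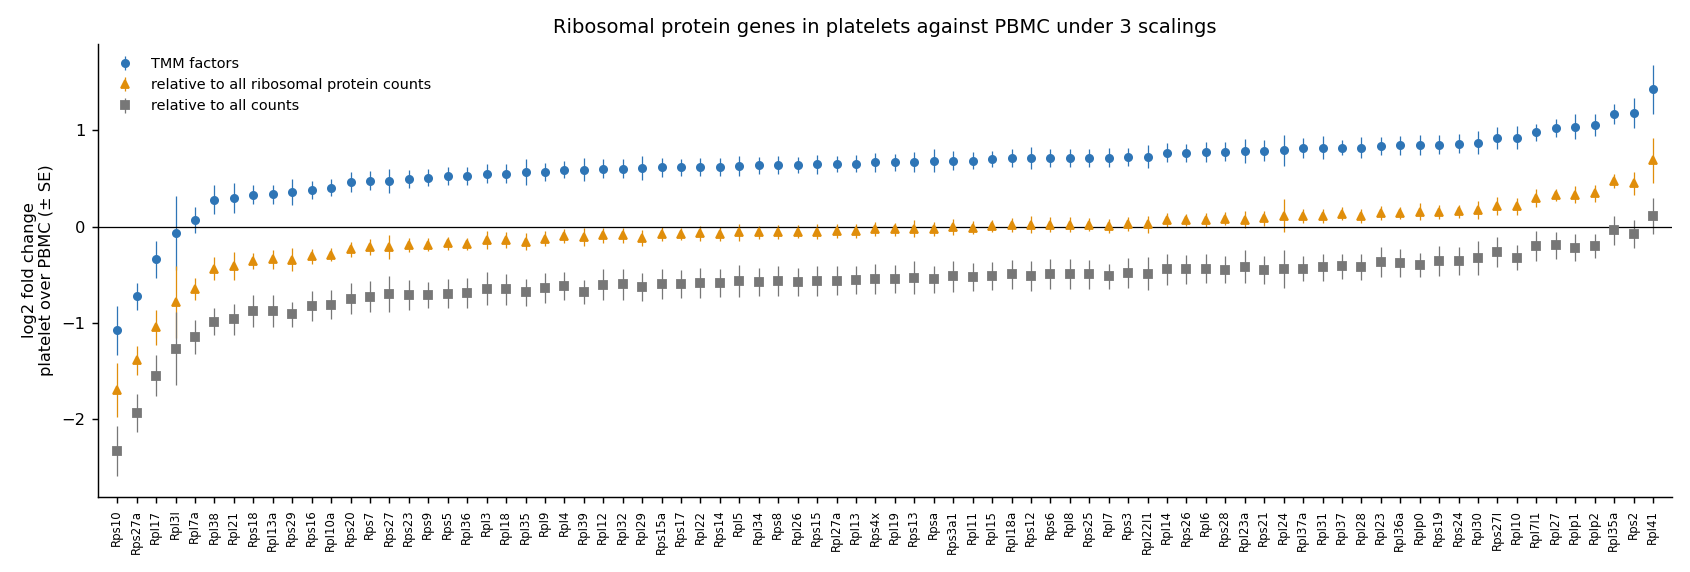
Log2 fold change of platelets over PBMCs (± SE) for 80 of the 81 tested members, ordered by the value with TMM factors (blue), beside values relative to all ribosomal protein counts (orange) and to all counts (grey). The 3 scalings shift these members together, with medians over all tested members of 0.67, −0.03 and −0.55, and leave Rps10 and Rps27a at the low end and Rpl41 at the high end.

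Within the family, Rpl41 was highest in platelets relative to the other members (0.69 ± 0.23, SE, adjusted P = 0.00756, edgeR). Its levels were 665 to 1751 CPM in platelets of C group and 462 to 579 CPM in PBMCs of C group. On the same scale Rpl35a (0.47 ± 0.08), Rps2 (0.45 ± 0.12), and the stalk proteins Rplp2 (0.35 ± 0.09) and Rplp1 (0.33 ± 0.09) were higher. Rpl35a, mutated in some patients with Diamond-Blackfan anemia, was measured at 222, 335, 472, 295 and 242 CPM in platelets of C group and 139, 141, 137, 141 and 128 CPM in PBMCs of C group. With TMM factors 4 of 81 members, Rpl35a, Rplp2 and Rpl27 among them, had all 15 platelet libraries above all 15 PBMC libraries, a smaller share than the 11.5% of all genes. Relative to the other members Rps27a (−1.39 ± 0.15), Rpl17 (−1.05 ± 0.18), Rpl7a (−0.65 ± 0.12), Rpl38 (−0.44 ± 0.12) and Rps29 (−0.34 ± 0.12) were lower in platelets, as were Rps18 (−0.36 ± 0.09) and Rpl13a (−0.34 ± 0.10). Copies held 316% of the counts of Rpl17 in platelets and 108% in PBMCs. For Rps29 these shares were 27.1% and 5.43%, and for Rpl7a 50.7% and 46.5%. With TMM factors Rps29 was at 0.36, and with copies added at 0.63, beside a member median of 0.69. Rps27a was measured at 106 to 118 CPM in platelets of O group and 114 to 229 CPM in PBMCs of O group. It was the 1 member of substantial level that was lower in platelets with TMM factors (log2 fold change −0.72, SE 0.14, adjusted P = 1.70e-05, edgeR), and it stayed lower with the copies added (−0.53, adjusted P = 0.000354, edgeR). Rps10 was the other (−1.08), but its 2 copies held 15572% of its own counts in platelets and 4891% in PBMCs, and with them added it was 0.61 higher in platelets. With copies added, 77 members were higher in platelets and 1 was lower with TMM factors.

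The difference between the tissues in their response was tested as an interaction. For S group against C group 2 of 81 members had an unadjusted P under 0.05 (5.38% of 16498 genes, 2.05% lower), Rpl22l1 (log2 fold change −0.79, SE 0.25, adjusted P = 0.737, edgeR) and Rpl6 (log2 fold change −0.49, SE 0.23, adjusted P = 0.908, edgeR), each lower in platelets relative to PBMCs. Rpl22l1 was measured at 30.7, 57.9, 72.6, 42.6 and 47.9 CPM in platelets of C group and 36.9, 45.3, 29.4, 41.8 and 25.2 CPM in S group, where the groups overlapped, while PBMCs of S group lay above C group. The call on Rpl22l1 held without each library and was lost with library totals (−0.59). The call on Rpl6 was lost in 10 of 20 fits without 1 library, and with the replicate block, no filter, hemoglobin counts left out, library totals, summed member counts or copies added. For Rps29, which was lower in S group in both tissues, the interaction was 0.19 ± 0.33, which misses the threshold and does not show that the tissues respond alike. For O group against C group no member had an unadjusted P under 0.05 in edgeR (6.59% of all genes) and 1 did in DESeq2 (7.32%), with none past the adjusted threshold in either. Without platelet C group replicate 3 there were 8 in edgeR (7.98% of all genes), and 1 without platelet C group replicate 4 (6.69%) or platelet O group replicate 1 (9.6%). Without O group replicates 1 and 4 of both tissues no member had an unadjusted P under 0.05 in edgeR (6.57% of all genes).

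Paralogs that can take the place of a parent protein were compared as the log2 ratio of their counts in a library, a measure that does not depend on scaling. Across the 4 pairs chosen for testing and 6 group comparisons (24 exact two-sided permutation tests), none had an adjusted P under 0.05 and 3 had an unadjusted P under 0.05, where the smallest P that 5 against 5 libraries allow is 0.00794. A single ratio at that P has an adjusted P of 0.190 over 24 tests, so that 1 ratio alone could not pass the adjusted threshold by the exact permutation test. The ratio of Rpl22l1 to Rpl22 was −2.88, −3.01, −2.89, −2.73 and −2.88 in PBMCs of C group, −2.45, −2.51, −2.44, −2.57 and −2.51 for S group and −2.64, −2.67, −2.67, −2.80 and −2.31 for O group. S group lay above C group in every library (difference 0.38, exact permutation P = 0.00794, adjusted P = 0.190), and O group was higher by 0.26 with overlap (exact permutation P = 0.0159, adjusted P = 0.190). These permutations ignored the replicate number, by which same-numbered PBMC libraries of S group and C group deviated together. No permutation within same-numbered pairs was run. Without O group replicates 1 and 4 O group lay above C group by 0.33 (exact permutation P = 0.0179, adjusted P = 0.214). In counts, Rpl22l1 stood at a median of 13.6% of Rpl22 in PBMCs of C group and 17.6% in S group. The ratio of Rps27l to Rps27 was −4.98 ± 0.26 in platelets of S group and −4.35 ± 0.71 in O group (SD, n = 5 each, exact permutation P = 0.0476, adjusted P = 0.381). The highest ratio was −3.13 in O group replicate 1, and without O group replicates 1 and 4 the difference was −0.23 (exact permutation P = 0.179). The ratios of Rpl7l1 to Rpl7 averaged −4.21 ± 0.35 in platelets and −4.49 ± 0.18 in PBMCs (SD, n = 15 each), and no group comparison of them passed. Rpl36al had 0 to 13 counts per platelet library and 12 to 53 per PBMC library, so that its ratio to Rpl36a rests on few counts. Rps4l, a paralog of Rps4x, had 26 to 126 counts in platelet libraries and 33 to 69 in PBMC libraries, and its ratio was not tested.

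**Figure D5:**
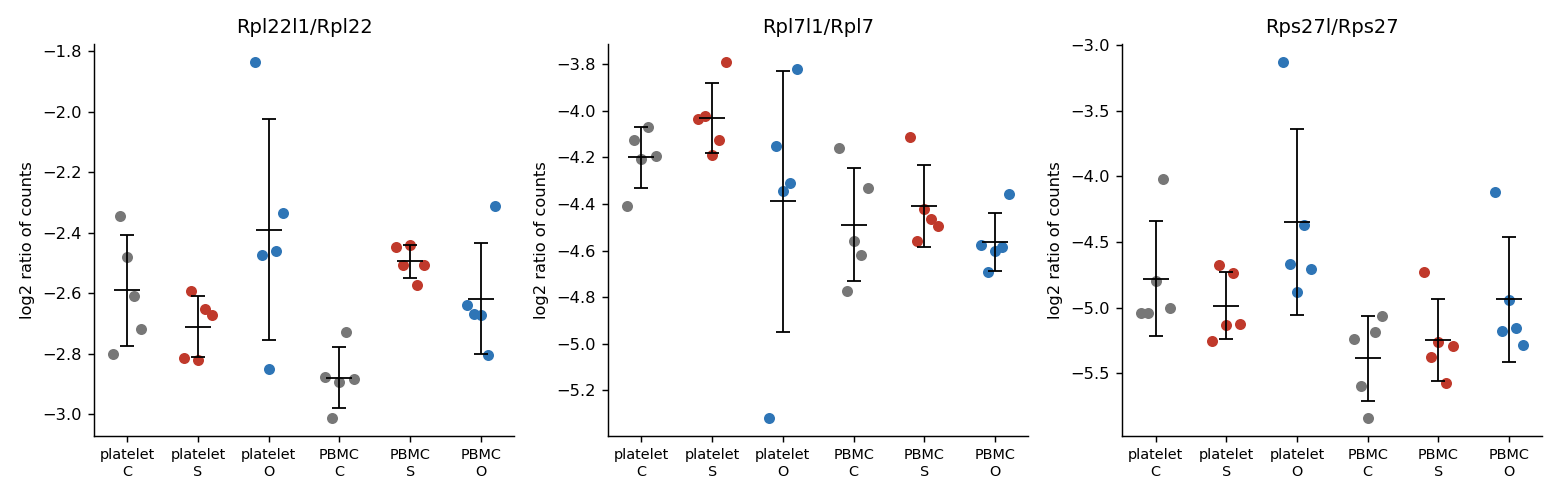
Log2 ratio of counts of Rpl22l1 to Rpl22, Rpl7l1 to Rpl7 and Rps27l to Rps27 in each library, with lines and bars for the mean and SD of each group of 5. The ratio of Rpl22l1 to Rpl22 is −2.88 ± 0.10 in PBMCs of C group and −2.49 ± 0.05 in S group, and platelet O group replicate 1 is at an end of the platelet range in all 3 panels.

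Promoter windows show what the members share in sequence. RefSeq windows (GRCm38.p6, 250 bases before to 50 after a start) were found for 63 of the 83 members and not for Rps29. The windows from 30 bases before to 30 after the start are printed for 4 of the 5 members past the unadjusted criterion in platelets of S group against O group. All 5 of 80 were lower in S group, close to the share of all genes that were lower (6.67%) and under the share past the criterion (13.9%). None of them was lower by the criterion without O group replicates 1 and 4 or relative to the summed member counts. The windows are given 5′ to 3′, with the longest pyrimidine tract in capitals (a C followed by at least 7 bases that are C or T).
Rpl38 (chr11:114668550-114668609, plus strand): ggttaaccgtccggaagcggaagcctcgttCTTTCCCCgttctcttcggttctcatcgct
Rpl35 (chr2:39005102-39005161, minus strand): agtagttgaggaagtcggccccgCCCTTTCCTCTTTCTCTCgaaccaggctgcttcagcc
Rpl31 (chr1:39367821-39367880, plus strand): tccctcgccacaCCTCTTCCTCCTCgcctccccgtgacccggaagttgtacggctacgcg
Rpl22l1 (chr3:28805478-28805537, plus strand): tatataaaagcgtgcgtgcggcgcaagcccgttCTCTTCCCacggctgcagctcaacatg
Rps21, the fifth, has 2 annotated starts, and no such tract was in either window. A tract was present in these windows for 54.0% of the member genes and 20.6% of 27025 genes. Searched on both strands over the whole window, CCGGAAG, the core of ETS family sites, was present for 41.3% of member genes and 9.93% of all genes, and AAGATGGC, a YY1 core, for 9.52% and 3.19%. The reverse complement of CCGGAAG can share letters with a tract. These matches describe the letters of the windows and were not set against the changes in expression.

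Genes that act with ribosomal proteins were read from further lists in the same fits (with TMM factors where no other scaling is named). Between tissues 35.8% of all genes were higher in platelets and 45.2% lower with TMM factors, in PBMCs of O group against C group 7.56% were higher and 4.39% lower, and in PBMCs of S group against O group 4.43% were higher and 7.8% lower. In platelets 4.29% were higher and 2.13% lower in S group against C group, 7.23% and 6.67% in S group against O group, and 2.61% and 2.17% in O group against C group. Of 20 translation elongation and other TOP genes, 17 were higher in platelets than in PBMCs with TMM factors (median 0.73, led by Nap1l1 at 1.65 and Eif3h at 1.53), and none was lower, whereas with library totals 2 were higher and 14 lower (14.2% and 76.9% of all genes). In platelets of S group against C group 19 of them lay below 0 (median −0.21) and 1 decreased, the histone chaperone gene Nap1l1 (−0.41, adjusted P = 0.755). With library totals their median there was −0.03, relative to the summed member counts it was 0.0017, and none passed with either. In PBMCs none passed in S group against C group, 3 were higher in O group than in C group, among them Pabpc1 (1.61, adjusted P = 0.346), and 3 were lower in S group than in O group. These counts were 1 (5.19% of all genes) and 0 (4.46%) without O group replicates 1 and 4. With library totals 1 was higher and 9 lower in O group against C group (2.22% and 27.6%), and 9 were higher and 1 lower in S group against O group (24.0% and 2.36%). Of 30 ribosome biogenesis genes, 7 were lower in PBMCs of O group than of C group and none higher (median −0.12), including Wdr12 (−0.27, adjusted P = 0.339) and the snoRNP protein gene Nop56 (−0.25, adjusted P = 0.350), and 5 were higher in S group than in O group. Without O group replicates 1 and 4, 1 of the 30 was lower in O group than in C group (3.89% of all genes) and 2 were higher in S group than in O group (3.95%). With library totals 22 of the 30 were lower in O group than in C group (27.6% of all genes), and relative to the summed member counts 0 were (1.36%). In platelets 2 of the 30, Nop58 (−0.45, adjusted P = 0.286) and Ncl (−0.42, adjusted P = 0.328), were lower in S group than in O group (3 without O group replicates 1 and 4, where 4.82% of all genes were). With library totals none of the 30 was lower there (2.1% of all genes). Relative to the summed member counts none was lower (1.16%) and 1 was higher (14.0%). Between tissues 18 were higher and 6 lower in platelets than in PBMCs with TMM factors, against 0 and 27 with library totals. Of 14 genes of mTORC1 and TOP control, 1 was lower in platelets of S group against C group, Myc (−0.37, adjusted P = 0.752), 1 was higher and 1 lower against O group (Akt1s1 and Rheb), 1 was higher in O group against C group (Mtor, 0.47, adjusted P = 0.910), and 1 was lower in PBMCs of S group against O group (Deptor). For platelets the counts without O group replicates 1 and 4 were 2 higher and 1 lower in S group against O group (6.71% and 4.82% of all genes) and 0 in O group against C group (1.8% higher). With library totals none of the 14 passed between any groups of platelets. Relative to the summed member counts 1 was higher in platelets of S group against O group and no other passed in platelets. In PBMCs of S group against O group 2 were higher and 0 lower with library totals (24.0% and 2.36% of all genes). Between tissues, 4 of the 14 were higher in platelets, with Eif4ebp1, an inhibitor of cap-dependent initiation, at 3.11 ± 0.20 (SE), and 8 were lower with TMM factors, against 1 and 13 with library totals.

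Mitochondrial ribosomal protein genes, which serve the separate ribosome of mitochondria, took a direction between tissues that rests on the scaling too. Of 77 tested, 57 were higher and 6 lower in platelets with TMM factors (median 0.56, with Mrpl34 at 1.51), whereas 2 were higher and 60 lower with library totals (median −0.65; 14.2% and 76.9% of all genes). In PBMCs of O group against C group 1 of the 77 was higher and 4 were lower with TMM factors, 1 and 5 without O group replicates 1 and 4 (5.19% and 3.89% of all genes), and 0 and 35 with library totals (2.22% and 27.6%). In PBMCs of S group against O group 2 were higher and 1 lower with TMM factors and 28 and 0 with library totals (24.0% and 2.36% of all genes). Fau, which encodes a small subunit protein fused to a ubiquitin-like protein under another symbol, was tested beside the members and stood at 0.89 ± 0.10 (SE) in platelets over PBMCs with TMM factors and at −0.33 ± 0.15 with library totals. Melanocyte markers, of which 2 of 7 had enough counts to test, summed to 2.49 to 6.58 CPM in platelets of O group and 12.2 to 27.9 CPM in PBMCs of O group, beside 20.7 to 29.3 CPM in PBMCs of C group, and Tyr, Tyrp1, Dct and Sox10 were at 0 in all PBMC libraries of O group. One of the 2, Mitf, passed the unadjusted criterion in platelets, higher in O group than in C group (1.19, adjusted P = 0.910, edgeR) and lower in S group than in O group (−0.95, adjusted P = 0.315).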

How the data were processed

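RNA was measured in 15 platelet and 15 PBMC libraries, each a pool of mice. Per the labels and methods, the authors selected mRNA with poly-T beads, filtered reads for adapters, poly-N and low quality, aligned them with HISAT2 2.0.5 and deposited raw read counts per gene from featureCounts 1.5.0-p3. Strand marking and the handling of reads with several matches are not given in the sources used here, and the labels name mm9 while the gene set matches GRCm38. The authors tested with DESeq2 1.16.1 at an unadjusted P under 0.05, which was kept here as the criterion for group comparisons and interactions. The platelet samples carry a cell type tag that reads PBMC, and were taken as platelets by title and source. The methods give other pool sizes than the labels for some platelet samples, and the labels are used.

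Counts were tested across all genes with edgeR 4.0.16 (R 4.3.3; quasi-likelihood, filterByExpr, TMM), each pair of groups alone, and members were read from those fits with Benjamini-Hochberg adjustment over all genes tested. SEs are the log2 fold change divided by the root of F. Alternatives were DESeq2 1.42.0, limma 3.58.1 (voom with sample weights), no filter, RLE factors, all 3 groups in one fit, hemoglobin genes left out, the replicate number as a block, each library left out and, chosen after seeing the data, library totals, summed member counts, copies added and O group left without replicates 1 and 4. The edgeR fit was tested on simulated data. Paralog ratios had 0.5 added to each count. Same-numbered PBMC libraries of S group and C group deviated together (5 of 5 correlations over 0.1, from 0.241 to 0.539), so the block is given there. No pair of the 60 replicate pairs agreed within sampling noise. The study describes its sequencing replicates as biologically independent, and P-values measure the spread between pools.

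The members, gene lists and tests were chosen with earlier results of these data known. Named were, per group comparison, the 4 members of smallest P under 0.05 and any past the adjusted threshold, the 5 highest and 5 lowest between tissues, the 3 of smallest P per interaction, the 4 of highest mean CPM, the paralog pairs, the stalk proteins, Rpsa, Rpl5 and Rpl11. Other members were named after their values were seen. Values of some genes and 1 sequence are not reported here, and counts over all members still include them.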

Additional observations from a re-analysis of the deposited data

Results flagged for a closer look

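Among 246 groups of 5 libraries tested, 25 held a library whose gap to its nearest neighbour exceeded Dixon's 95% limit, a rule that chance meets in about 1 of 20 groups. Platelet O group replicate 1 accounted for 11 of them. It was highest for Rpl11 (705 CPM), Rpl35 (801 CPM), Rpl38 (623 CPM), Rpl7 (1649 CPM), Rplp2 (1607 CPM), Rps2 (2981 CPM) and Rps27l (30.3 CPM). It was lowest for Rpl22 (202 CPM), Rpl3 (642 CPM), Rpl5 (664 CPM) and Rps3a1 (1099.7 CPM). Platelet O group replicate 4 was highest for Rps4x (1211 CPM).

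In platelets of C group, replicate 3 was highest for Rpl23a (531 CPM) and Rplp2 (1026 CPM), and replicate 1 had the highest share of short members among all ribosomal protein counts (11.1%). In platelets of S group, replicate 5 was lowest for Rplp0 (1302 CPM), Rplp1 (782 CPM) and Rps2 (477 CPM). In PBMCs of C group, replicate 5 was lowest for Rpl35a (128 CPM) and replicate 2 was highest for Rpl36a (157 CPM) and Rpl7 (613 CPM). In PBMCs of S group, replicate 1 was highest for Rpl39 (307 CPM), Rpl7l1 (35.6 CPM) and Rplp2 (441 CPM), and in PBMCs of O group replicate 1 was highest for Rps27l (18.4 CPM).

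The interaction of tissue with S group against C group had an unadjusted P under 0.05 for Rpl22l1 (platelet change minus PBMC change −0.79 on the log2 scale) and Rpl6 (−0.49), 2 of 81 members where 5.38% of all genes passed, and neither passed the adjusted threshold in edgeR. The Rpl22l1 call was lost with library totals, and that on Rpl6 in 10 of 20 fits without 1 library and with the replicate block.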

How the results depend on the processing

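The count of members past the criterion changed by over 1.5 times as follows, and the cause was not tested. Brackets give all genes past the same criterion. In platelets of S group against C group (1 member) it was 3 with DESeq2 (7.52%), 2 without a filter (7.72%), 2 with voom (15.7%), and 0 with the replicate block (5.77%), library totals (10.6%) or copies added (6.43%). In platelets of S group against O group (5) it was 14 with DESeq2 (15.9%), 3 with library totals (7.85%), 2 with member totals (15.2%) and 1 without O group replicates 1 and 4 (11.5%). In platelets of O group against C group (1) it was 2 with DESeq2 (5.85%), without a filter (5.98%) or with all 3 groups in one fit (6.87%), and 0 without O group replicates 1 and 4 (3.13%). In PBMCs of S group against O group (6) it was 10 with DESeq2 (13.2%), 11 with voom (14.6%), 10 with all 3 groups (15.8%), 33 with library totals (26.4%) and 3 without O group replicates 1 and 4 (8.42%). In PBMCs of O group against C group (8) it was 14 with DESeq2 (15.2%), 5 with the replicate block (12.2%), 13 with all 3 groups (13.7%), 58 with library totals (29.8%), 4 with member totals (11.6%), 3 without O group replicates 1 and 4 (9.08%) and 4 with copies added (11.9%). Between tissues (76) it was 30 with member totals (14007 of 16498 genes). The members higher in platelets (74) numbered 0 with library totals (14.2%) and 13 with member totals (19.8%), and those lower (2) numbered 71 (76.9%), 17 (65.1%) and, with copies added, 1 (7455 of 16489 genes). The interaction of S group and C group (2) had 1 without a filter (2156 of 38098 genes), 4 with voom (2083 of 16498), 1 with the replicate block (717 of 16498), 1 without hemoglobin counts (906 of 16648), 0 with library totals (1122 of 16498), 1 with member totals (922 of 16498) and 1 with copies added (885 of 16489). The interaction of O group and C group (0) had 1 with DESeq2 (1207 of 16498 genes) and 4 with voom (1340 of 16498) or library totals (1948 of 16498). The count for PBMCs of S group against C group (12) stayed within 1.5 times under all of these, and was 13 with the replicate block (4.3%).

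Without 1 library the counts ranged from 0 to 9 (platelets of S group against C group, 0 without C group replicate 5 and 9 without C group replicate 1), 2 to 13 (S group against O group), 0 to 2 (O group against C group), 5 to 17 (PBMCs of S group against C group), 4 to 9 (S group against O group), 2 to 18 (O group against C group), 76 to 78 (tissues; 74 to 76 higher, 2 to 3 lower), 1 to 3 (interaction of S group and C group) and 0 to 8 (interaction of O group and C group, 8 without platelet C group replicate 3). The median log2 fold change of the members ranged from −0.34 to −0.06, −0.27 to −0.11, −0.12 to 0.14, −0.07 to 0.00, 0.01 to 0.09, −0.13 to −0.07, 0.62 to 0.82, −0.29 to −0.09 and −0.03 to 0.30 in the same order. The mean share of counts ranged from 2.83% to 3.79% (platelets of C group), 2.98% to 3.44% (S group), 3.26% to 3.81% (O group), 5.37% to 5.55% (PBMCs of C group), 5.12% to 5.41% (S group) and 3.81% to 4.38% (O group). Paralog ratios with an unadjusted P under 0.05 (3) numbered 2 to 5 without 1 library and 2 without O group replicates 1 and 4.

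Among the members named by the stated rule, 10 values reversed, all between tissues. Of the others, with copies added Rps27 in PBMCs of S group against C group went from −0.21 to 0.03 and Rps10 and Rpl24 in platelets fell below 0, and Rpl27 was at −0.19 between tissues with library totals. With copies added Rps10 was at 0.61. With library totals Rps18 was at −0.87, Rpl13a −0.88, Rps29 −0.91, Rplp2 −0.20, Rpl35a −0.038 and Rps2 −0.075, and with member totals Rps18 was at −0.36, Rpl13a −0.34 and Rps29 −0.34. A further 88 values kept their direction and lost the criterion and 960 kept both. Outside PBMCs of S group and C group, same-numbered libraries correlated from −0.168 to 0.398 within a tissue, and the replicate block changed the counts as given above. Same-numbered platelet and PBMC libraries correlated from −0.094 to 0.562. Depth limits Rpl3l, Rpl39l and Rpl10l, which had too few counts to test in platelets.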
